A study of Mus musculus with 4 samples.

Results

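The mRNAs of mitochondrial ribosomal proteins were examined in RNA of purified ependymal multicilia, in 76 genes of the 10213 gene symbols in the table. They were taken by name, as every row whose gene symbol begins with Mrpl or Mrps and a digit, which gave 102 transcript rows of 12515. By name, 50 genes with 71 rows belong to the large subunit (Mrpl) and 26 genes with 31 rows to the small subunit (Mrps). Mouse ependymal cells (mEPCs) were cultured from telencephalon of newborn C57BL/6 pups of either sex, and the same procedure was used for both groups: transfection with 40 pmol siRNA every 3 days from the day before serum was withdrawn, and collection of the multicilia on day 10. The control group received the siRNA Ctrl-i and the other group Fmr-i1, which targets Fmr1, the gene of the RNA-binding protein Fmrp, with 1 library of each group in Exp.1 and 1 in Exp.2 (n = 2 per group). By the study's methods the multicilia were sheared off and cleared on a density gradient, and they came with the apical cortex that carries them, so the material is not made of ciliary shafts alone. The sources used here do not say whether the experiments used different litters, and the p-values then measure only the spread between these libraries.

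Mitochondria carry their own ribosome, which translates the few mRNAs of the mitochondrial genome, all of them coding for subunits of oxidative phosphorylation. Its ribosomal RNAs are made inside the organelle, whereas every protein of it is encoded in the nucleus, translated in the cytosol and imported. The small subunit binds and decodes the mRNA and the large subunit joins the amino acids, as in bacteria, and both subunits hold bacteria-related proteins and proteins found only in mitochondria. These mRNAs are therefore made in the nucleus and read by cytosolic ribosomes, and they stand here as nuclear transcripts in a ciliary preparation.

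The values are FPKM, fragments scaled to the length of the transcript and to the library's mapped fragments, and without a known read depth they carry no counting error. Fmr1 was listed at 0.42 and 8.13 FPKM in Ctrl-i Exp.1 and Exp.2 and at 0 in both Fmr-i1 libraries, and a listed 0 among FPKM can be a failed estimate. Of the 12 markers of multiciliated cells all were in the table, with summed FPKM of 785 to 1091 per library. The 10 astrocyte and radial glia markers were also all present, with 5334 to 7339 FPKM, whereas none of 10 microglial and none of 5 endothelial markers was. Most of the astrocyte and radial glia sum came from Vim, with 2686 to 3797 FPKM, and Gfap, with 1331 to 2101 FPKM. Of the other marker lists, 5 of 9 oligodendrocyte, 4 of 8 neuronal and 2 of 7 fibroblast markers were in the table, with summed FPKM of 100.3 to 142, 73.2 to 96.0 and 9.48 to 56.9. RNA of the mitochondrial genome, from 3 symbols that begin with mt- (both ribosomal RNAs and mt-Nd3), took 28.1% and 38.4% of all FPKM in Ctrl-i Exp.1 and Exp.2 and 28.8% and 23.5% in Fmr-i1 Exp.1 and Exp.2. Because this share differs between libraries, the sums over the members and over each subunit are given on the deposited scale and as a share of the FPKM that remains without those 3 symbols. Values of single genes and rows are on the deposited scale unless stated. In bulk material a smaller number of cells or mitochondria and less RNA in each cannot be told apart.

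The mitochondrial ribosomal protein mRNAs took nearly the same share of the nuclear-encoded RNA in all libraries. Their summed FPKM was 3293 and 2674 in Ctrl-i Exp.1 and Exp.2 and 3109 and 3071 in Fmr-i1 Exp.1 and Exp.2. Without the mt- symbols these sums came to 0.784% and 0.736% of the remaining FPKM in Ctrl-i, against 0.774% and 0.746% in Fmr-i1. Ctrl-i Exp.2, the library with the largest share of mt- RNA, had the lowest sum on the deposited scale, and both Fmr-i1 shares lay between the Ctrl-i shares. The log2 ratio of the summed FPKM, Fmr-i1 over Ctrl-i, was 0.05 on the deposited scale, with -0.08 in Exp.1 and 0.20 in Exp.2. On the scale without the mt- symbols it was -0.02 in Exp.1 and 0.02 in Exp.2.

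**Figure D1:**
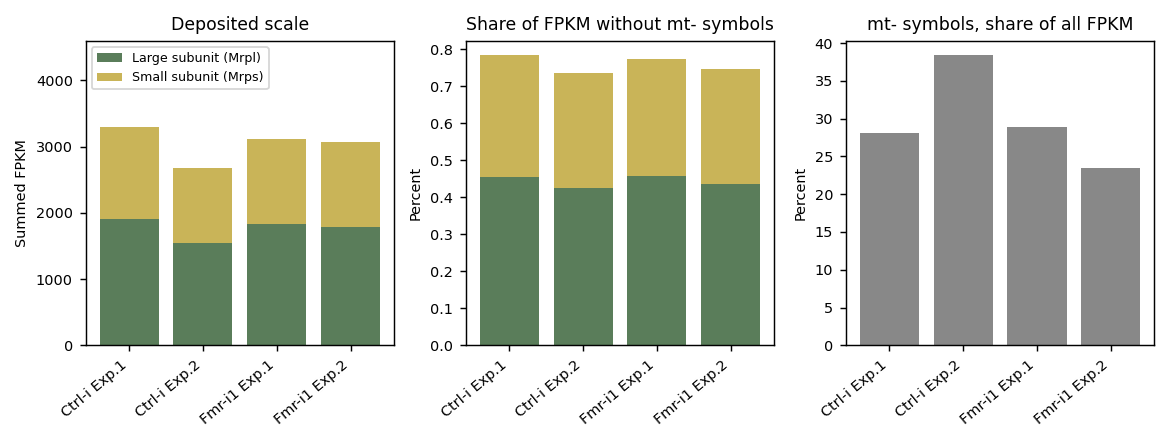
Stacked bars show the summed FPKM of large (green) and small (yellow) subunit genes in each library on the deposited scale (left) and as a percent of FPKM without mt- symbols (middle), and grey bars show the mt- symbols as a percent of all FPKM (right). The left bars range from 2674 to 3293 FPKM and the middle bars only from 0.736% to 0.784%, while the mt- share ranges from 23.5% to 38.4%.

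The large and small subunits stood in similar proportion in the libraries. The large subunit genes summed to 1915 and 1549 FPKM in Ctrl-i Exp.1 and Exp.2 and to 1837 and 1794 FPKM in Fmr-i1 Exp.1 and Exp.2. The small subunit genes summed to 1378 and 1124 FPKM in Ctrl-i and to 1272 and 1278 FPKM in Fmr-i1. Of the FPKM without mt- symbols, the large subunit took 0.456% and 0.426% in Ctrl-i, against 0.457% and 0.436% in Fmr-i1, and the small subunit 0.328% and 0.309% in Ctrl-i, against 0.317% and 0.310% in Fmr-i1. The ratio of large to small was 1.39 and 1.38 in Ctrl-i, against 1.44 and 1.40 in Fmr-i1, so both Fmr-i1 ratios lay above both Ctrl-i ratios. An exact permutation test of 2 libraries against 2 cannot go below p = 0.333.

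Some names do not match the place of the protein. Mrps18a and Mrps30 are part of the large subunit in structures of the mammalian mitochondrial ribosome, Mrps36 belongs to the 2-oxoglutarate dehydrogenase complex, and Mrpl23-ps1 is annotated as a processed pseudogene. With 51 genes in the large and 23 in the small subunit by structure, the ratio was 1.49 and 1.63 in Ctrl-i Exp.1 and Exp.2 and 1.59 and 1.58 in Fmr-i1, and the groups then overlapped. Mrps30 had 9.82 and 13.02 FPKM in Ctrl-i and 20.40 and 17.15 FPKM in Fmr-i1, without overlap. Mrps18a had 37.84 and 65.82 FPKM in Ctrl-i and 37.88 and 58.30 FPKM in Fmr-i1. Mrps36 had 17.50 and 47.83 FPKM in Ctrl-i and 22.39 and 25.09 FPKM in Fmr-i1, so the value of Ctrl-i Exp.2 stood apart and both Fmr-i1 values fell between the Ctrl-i values.

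A single gene, Mrps6, held a large part of the small subunit's sum. Mrps6, the counterpart of a bacterial small subunit protein, had 517.96 and 333.23 FPKM in Ctrl-i Exp.1 and Exp.2 and 401.98 and 351.10 FPKM in Fmr-i1 Exp.1 and Exp.2. It was the highest member in every library, and its mean was 3.48 times that of the next member. It took 15.7% and 12.5% of the members' FPKM in Ctrl-i, against 12.9% and 11.4% in Fmr-i1. Without Mrps6 the ratio of large to small by name was 2.23 and 1.96 in Ctrl-i, against 2.11 and 1.94 in Fmr-i1, and its groups overlapped.

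Mrps6 lies on chromosome 16 of GRCm38, from 92058270 to 92112227 on the plus strand, and it overlaps a second gene on the same strand. Slc5a3, which encodes a myo-inositol transporter, shares 159 exon bases with it, from 92058322 to 92058480, out of 846 bases of the Mrps6 transcript and 10913 of the Slc5a3 transcript. Slc5a3 had 17.07 and 9.50 FPKM in Ctrl-i Exp.1 and Exp.2 and 16.98 and 23.79 FPKM in Fmr-i1. The sources used here do not say how the shared fragments were assigned, so the level of Mrps6 is uncertain by that part.

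Among the other small subunit genes, the highest mean FPKM was that of Mrps21. Mrps21, which is related to a bacterial protein, had 83.37 and 117.21 FPKM in Ctrl-i Exp.1 and Exp.2 and 105.09 and 155.99 FPKM in Fmr-i1. Mrps33, a protein found only in mitochondria, had 100.54 and 72.16 FPKM in Ctrl-i and 52.40 and 64.12 FPKM in Fmr-i1. Both Fmr-i1 values of Mrps33 lay below both Ctrl-i values, whereas the groups overlapped for Mrps21. Mrps34, which in mice is needed for a stable small subunit, had 70.53 and 55.58 FPKM in Ctrl-i and 70.59 and 58.19 FPKM in Fmr-i1, and its values paired by experiment rather than by siRNA. Mrps16 had 57.14 and 33.10 FPKM in Ctrl-i and 42.53 and 76.42 FPKM in Fmr-i1. Mrps18c had 31.46 and 68.01 FPKM in Ctrl-i and 66.64 and 41.09 FPKM in Fmr-i1. In both of these bacteria-related members the experiments went opposite ways. The lowest small subunit genes were Mrps25, Mrps27 and Mrps5, with 6.71 to 13.58, 2.13 to 7.24 and 3.28 to 4.44 FPKM over the libraries, and in each of them the groups overlapped.

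The large subunit had no member that stood apart in the same way. Mrpl20, which is related to a bacterial protein of early subunit assembly, had 94.87 and 87.77 FPKM in Ctrl-i Exp.1 and Exp.2 and 115.07 and 136.61 FPKM in Fmr-i1. Mrpl52, found only in mitochondria, had 114.13 and 109.99 FPKM in Ctrl-i and 89.06 and 92.23 FPKM in Fmr-i1. The groups did not overlap in either gene, with Fmr-i1 above Ctrl-i in Mrpl20 and below it in Mrpl52. Mrpl33, whose 2 rows were summed, had 109.23 and 34.24 FPKM in Ctrl-i and 87.06 and 141.40 FPKM in Fmr-i1. Mrpl42 had 90.70 and 89.22 FPKM in Ctrl-i and 77.36 and 100.60 FPKM in Fmr-i1. The groups overlapped in both, and Ctrl-i Exp.2 was the low library of Mrpl33. Mrpl24, summed over 3 rows, had 66.34 and 72.57 FPKM in Ctrl-i and 79.03 and 75.75 FPKM in Fmr-i1. Mrpl30, summed over 2 rows, had 53.47 and 41.59 FPKM in Ctrl-i and 80.57 and 62.66 FPKM in Fmr-i1. Both of these bacteria-related genes were higher in Fmr-i1 without overlap, but Mrpl24 overlapped on the scale without mt- symbols, with 63.1 and 79.7 in Ctrl-i, against 78.6 and 73.4 in Fmr-i1. The lowest of the large subunit names were the pseudogene Mrpl23-ps1 with 6.48 to 7.69 FPKM, Mrpl1, a protein of the mobile stalk near the tRNA exit site in bacteria, with 3.09 to 5.51 FPKM, and Mrpl19 with 2.31 to 4.63 FPKM.

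**Figure D2:**
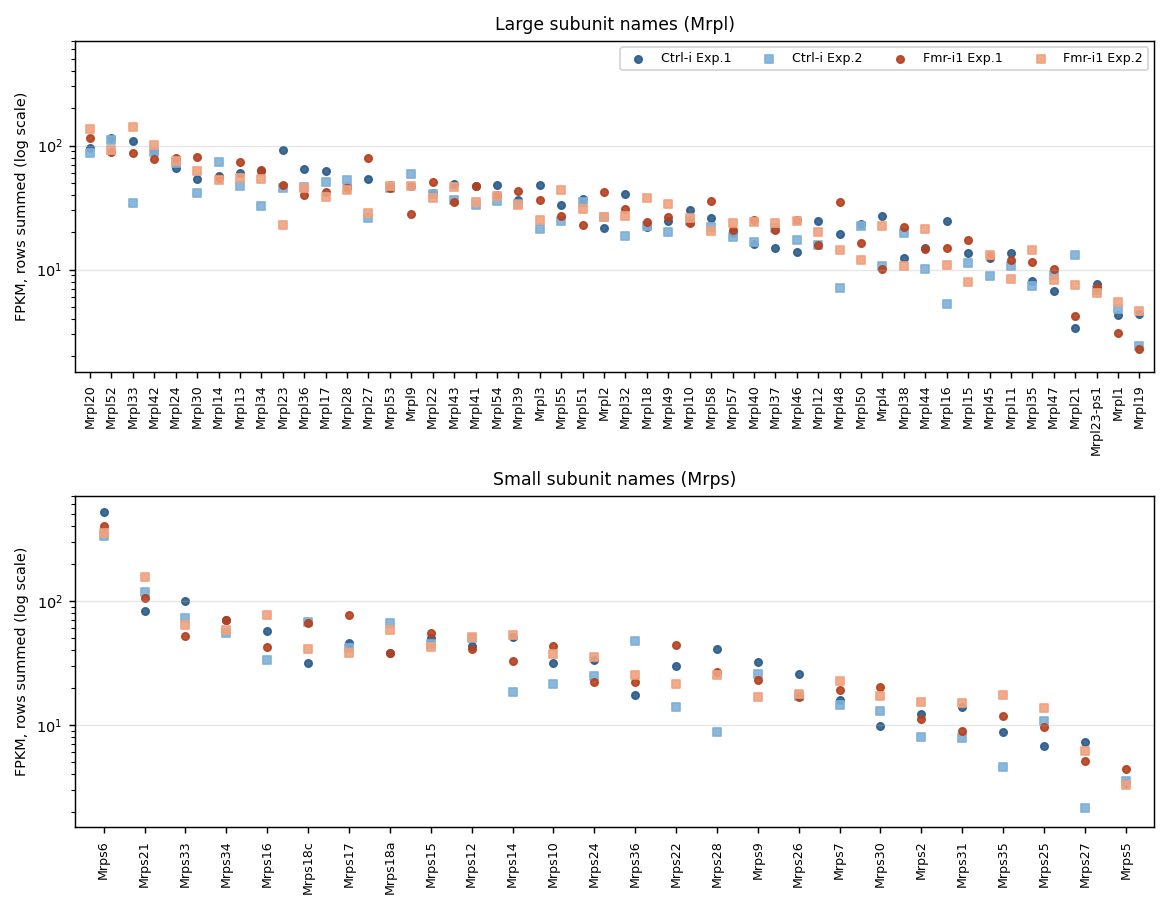
Each column is 1 gene, ordered by its mean, and the 4 points are its FPKM in the 4 libraries (log axis, rows of a gene summed), for large (top) and small (bottom) subunit names. Mrps6 lies between 333.23 and 517.96 FPKM, above every other gene, and the other genes form a continuous range down to 2.13 FPKM.

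Member levels spanned a narrower range than those of all symbols in the table. The median gene had 31.9 and 23.7 FPKM in Ctrl-i Exp.1 and Exp.2 and 29.5 and 26.8 FPKM in Fmr-i1, and the ratio of the 90th to the 10th percentile was 7.92 to 9.75 over the libraries. Over all symbols that ratio was 43.9 to 48.4. It was 14.1 to 25.5 among 85 cytosolic ribosomal protein genes and 8.46 to 12.1 among 77 nuclear genes of oxidative phosphorylation. In 50 of 76 genes the highest library was under 2 times the lowest, and the median of this quotient was 1.66 for large and 1.93 for small subunit names. Of the 4 libraries, Ctrl-i Exp.2 was the lowest in 31 genes, more than in any other library. The median over all symbols was also lowest there, at 8.78 FPKM, against 9.51 in Ctrl-i Exp.1 and 10.34 and 10.83 in Fmr-i1. The same counts over all symbols were not made, so neither the 50 nor the 31 genes show a trait of the members. Across the 76 genes, Spearman's rho between libraries was 0.840 to 0.888, a description over genes that share libraries and length. Shorter transcripts had higher FPKM (rho -0.40 over the 102 rows and -0.39 over all rows tested), and members were short, with a median of 1024.5 bases against 2657 for all rows.

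The cytosolic ribosome's mRNAs were more abundant. Their summed FPKM was 7.90 and 6.88 times that of the members in Ctrl-i Exp.1 and Exp.2 and 6.89 and 7.81 times in Fmr-i1. The nuclear genes of oxidative phosphorylation, whose complexes also need the products of the mitochondrial ribosome, summed to 5.04 and 4.28 times the members in Ctrl-i and 4.53 and 5.10 times in Fmr-i1. Neither quotient separated the groups.

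Fmr-i1 was then compared with Ctrl-i row by row, to ask whether any of these mRNAs differs with the siRNA against Fmr1. With limma on log2(FPKM + 1) and Benjamini-Hochberg adjustment over 11898 rows, 0 of 102 member rows passed an adjusted p of 0.05, and 0% of all rows did. The smallest adjusted p of a member row was 0.767. At an unadjusted p under 0.05 there were 4 member rows, against 598 of all rows (5.03%). Without the experiment as a block there were 3, against 720 of all rows (6.05%). Adding 1 FPKM shrinks the fold change of low rows.

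The median member row had a log2 fold change of 0.10, which was 0.06 below the median of all rows tested (0.16). Relative to the latter, 47 member rows lay above and 55 below. The large subunit had a median of -0.12 relative to all rows, with 30 rows above and 41 below, and the small subunit a median of 0.10, with 17 above and 14 below. The median of the large less that of the small subunit was -0.22, but it was -0.17 in Exp.1 and 0.04 in Exp.2, and it was -0.02 when Ctrl-i Exp.1 was left out. On the same scale the cytosolic ribosomal protein rows had a median of -0.16 and the oxidative phosphorylation rows one of -0.14.

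Member rows whose groups did not overlap were about as frequent as among all rows. Both Fmr-i1 libraries were above both Ctrl-i libraries in 22 member rows (21.6%), against 25.7% of all rows. They were below in 11 (10.8%), against 11.2% of all rows. On the scale without mt- symbols the counts were 20 rows above (background 23.4%) and 16 below (background 12.7%). By experiment, 33 member rows (32.4%) were higher in Fmr-i1 in both on the deposited scale, against 34.2% of all rows, and 17 (16.7%) were lower in both, against 16.6%. Scaled without the mt- symbols, 26 (25.5%) were higher in both, against 31.7% of all rows, and 25 (24.5%) were lower in both, against 18.9%. Libraries of 1 group differed about as much as libraries of different groups. The median size of the log2 difference between member rows was 0.40 between the Ctrl-i libraries, 0.41 between the Fmr-i1 libraries, 0.43 between groups in Exp.1 and 0.45 between groups in Exp.2.

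**Figure D3:**
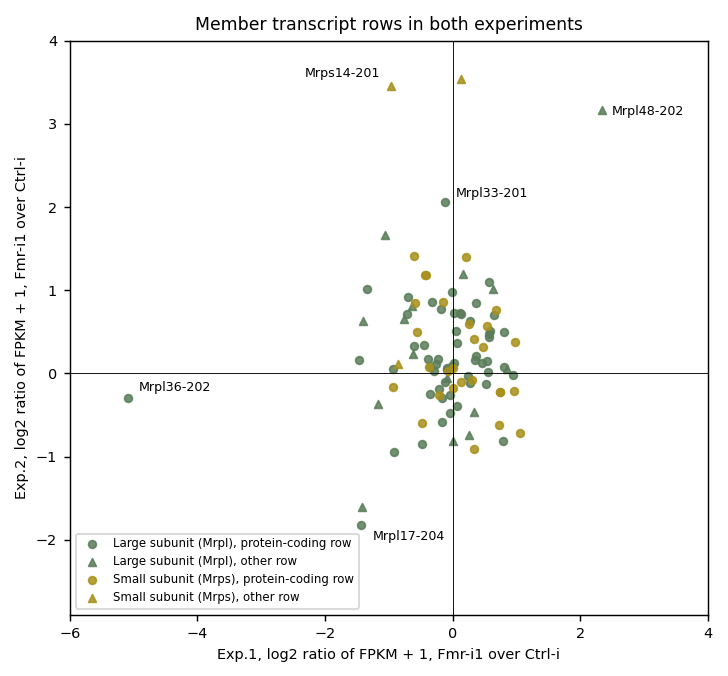
Each symbol is 1 of 102 member rows, with its log2 ratio of FPKM + 1, Fmr-i1 over Ctrl-i, in Exp.1 (x axis) and Exp.2 (y axis); circles are protein-coding rows and triangles other rows. In 82 rows the ratio lies within 1 of 0 in both experiments, and the labelled rows are among those that lie far out, such as Mrpl36-202 at -5.09 in Exp.1 and -0.29 in Exp.2.

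The widest differences were in single transcript rows, and some of these are not classed as protein-coding by the annotation. Of the 102 rows, 84 are protein-coding transcripts in GENCODE M21, 9 are marked for nonsense-mediated decay, the pathway that removes mRNAs with an early stop codon, 5 are processed transcripts without a reading frame, 3 retain an intron and 1 is the pseudogene. Together the 18 rows that are not protein-coding took 7.73% and 6.29% of the members' FPKM in Ctrl-i Exp.1 and Exp.2 and 6.15% and 7.33% in Fmr-i1. Of 5 rows that averaged 5 FPKM or more and differed by over 2 on the log2 scale in either experiment, 3 were not protein-coding. Rows that are not protein-coding made up 17.6% of member rows and 13.6% of all rows with an annotated type. The same cut was not applied to all rows, and 5 rows are too few to show a trend. Rows of 1 gene share exons, so their values depend on how shared fragments were divided between transcripts, and the part of this in the differences below was not tested.

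The sequences that set 2 of these rows apart from the other rows of their genes are shown first, read from the GENCODE transcripts (GRCm38) as the 15 bases on each side of an exon boundary, with the downstream bases in capitals. For Mrpl48-202 and Mrpl36-202 the boundary is a splice junction that no other row of the gene in the table has.
Mrpl48-202: ccattttttctgcagAGAAAAAAATTCCAA
Mrpl36-202: gcgcagtgttcaaagCATCTGCAGAGGCAG
The Mrpl48-202 junction joins exons 2 and 3 on the minus strand of chromosome 7, from base 100571252 to 100565427. The Mrpl36-202 junction joins exons 1 and 2 on the plus strand of chromosome 13, from 73328620 to 73330860.

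Mrpl48 is a large subunit protein found only in mitochondria, and its row Mrpl48-202, marked for nonsense-mediated decay, had the largest positive difference of the member rows with a mean of 5 FPKM or more and the same direction in both experiments. It had 3.13 and 0.10 FPKM in Ctrl-i Exp.1 and Exp.2 and 20.04 and 8.88 FPKM in Fmr-i1. Both Fmr-i1 values were above both Ctrl-i values, and the log2 fold change was 2.60 above the median of all rows (SE 0.52; limma, adjusted p = 0.767). Without Ctrl-i Exp.2 it was 1.72. The coding row Mrpl48-207 had 14.40 and 3.50 FPKM in Ctrl-i and 13.52 and 3.62 FPKM in Fmr-i1, so its values followed the experiment and not the siRNA. Summed over its 3 rows, Mrpl48 had 19.23 and 7.05 FPKM in Ctrl-i and 34.97 and 14.46 FPKM in Fmr-i1, and the groups overlapped.

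Of the 5 rows with the largest positive differences, 3 more were at 0.67 for Mrpl30-205, 0.67 for Mrpl3-204 and 0.64 for Mrps10-204 relative to all rows, and in each both Fmr-i1 values exceeded both Ctrl-i values. Without Ctrl-i Exp.2 the difference was 0.27 for Mrpl30-205 and 0.23 for Mrps10-204, without Ctrl-i Exp.1 it was 1.11 and 1.10, and without Fmr-i1 Exp.1 it was 0.42 for Mrpl30-205. Mrpl3 lies close to the site of peptide bond formation and Mrps10 in the head of the small subunit. Mrpl3-204 is 1 of 4 rows of its gene, none of them protein-coding, and summed over these Mrpl3 had 47.74 and 21.36 FPKM in Ctrl-i and 36.63 and 25.18 FPKM in Fmr-i1.

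Mrpl36 is related to a small bacterial large subunit protein, and Mrpl36-202 had the largest negative difference. It had 33.31 and 19.43 FPKM in Ctrl-i Exp.1 and Exp.2 and 0.01 and 15.65 FPKM in Fmr-i1. The value of 0.01 FPKM stood alone, and the log2 fold change of -2.85 relative to all rows (SE 1.13; limma, adjusted p = 0.945) was -0.87 without Fmr-i1 Exp.1 and -4.85 without Fmr-i1 Exp.2. The other coding row, Mrpl36-201, had 30.91 and 26.57 FPKM in Ctrl-i and 39.68 and 29.71 FPKM in Fmr-i1. Both rows hold 306 coding bases, in 3 exons for Mrpl36-202 and 2 for Mrpl36-201.

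Mrpl17, related to a bacterial protein, had lower values in both Fmr-i1 libraries in the coding row Mrpl17-204. This row had 26.90 and 16.90 FPKM in Ctrl-i and 9.37 and 4.05 FPKM in Fmr-i1. Its log2 fold change was -1.79 relative to all rows (SE 0.42; limma, adjusted p = 0.940), and the row Mrpl17-203, marked for nonsense-mediated decay, had 8.69 and 13.08 FPKM in Ctrl-i and 16.45 and 13.60 FPKM in Fmr-i1. The coding row Mrpl17-202 holds 528 coding bases, against 364 in Mrpl17-204. Mrpl17-202 had 7.24 and 6.47 FPKM in Ctrl-i and 6.11 and 5.57 FPKM in Fmr-i1. Mrpl17-205, also a coding row, had 19.88 and 14.86 FPKM in Ctrl-i and 9.94 and 15.39 FPKM in Fmr-i1. Summed over its 4 rows, Mrpl17 had 62.71 and 51.31 FPKM in Ctrl-i and 41.87 and 38.61 FPKM in Fmr-i1, and the groups stayed apart.

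Mrpl23, which in bacteria lies at the exit of the peptide tunnel, had a single row, the fourth among the negative differences. Mrpl23 had 91.85 and 45.60 FPKM in Ctrl-i Exp.1 and Exp.2 and 48.40 and 23.10 FPKM in Fmr-i1. It was lower in Fmr-i1 within each experiment, by 0.91 and 0.95 on the log2 scale, yet Fmr-i1 Exp.1 lay above Ctrl-i Exp.2, and only on the scale without mt- symbols did the groups not overlap. Its log2 fold change relative to all rows was -1.09 (SE 0.31; limma, adjusted p = 0.945), and it was -0.63 without Ctrl-i Exp.1, -0.55 without Fmr-i1 Exp.2 and -1.65 without Fmr-i1 Exp.1. Its pseudogene Mrpl23-ps1 had 7.69 and 6.80 FPKM in Ctrl-i and 7.22 and 6.48 FPKM in Fmr-i1, and fragments common to both copies make the values of both uncertain. The processed transcript Mrpl51-202 was the last of the 5 rows chosen for a negative difference, with 18.20 and 18.63 FPKM in Ctrl-i and 7.52 and 14.20 FPKM in Fmr-i1.

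**Figure D4:**
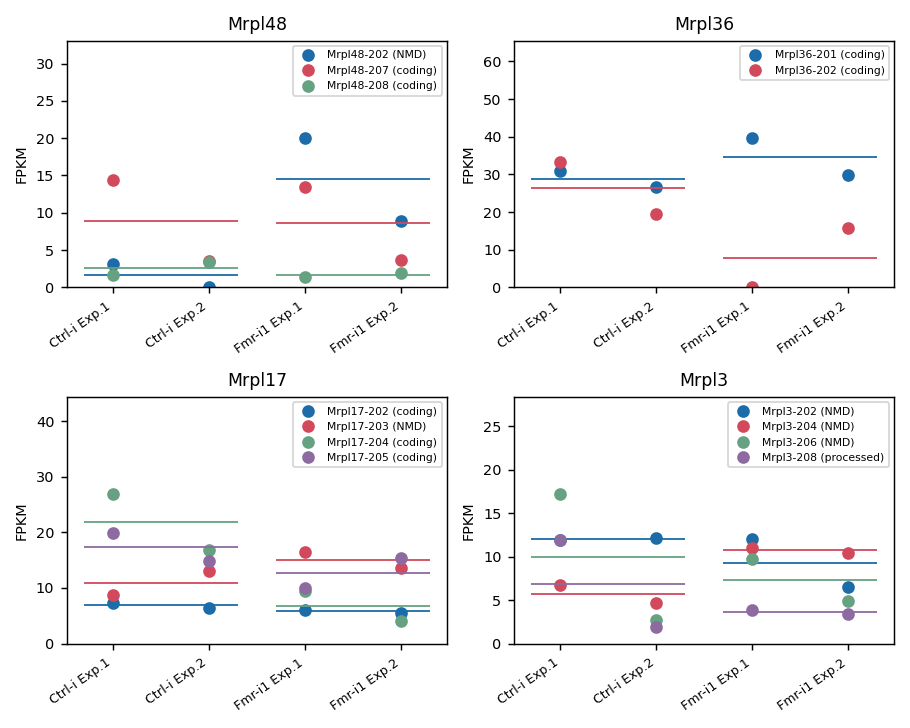
Points are the FPKM of each transcript row in the 4 libraries for 4 genes with several rows, and horizontal lines are the mean of each group's 2 libraries (coding, protein-coding; NMD, marked for nonsense-mediated decay; processed, processed transcript). Mrpl48-202 differs between the groups while the coding rows of its gene overlap, and the single value of 0.01 FPKM of Mrpl36-202 lies in Fmr-i1 Exp.1.

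Of 19 genes with several rows, 12 had rows on opposite sides of the median of all rows. The share among all genes with several rows was not computed, so the count shows no trait of the members. These 12 genes included Mrpl3, Mrpl13, Mrpl17, Mrpl24, Mrpl36, Mrpl48, Mrpl55, Mrpl58, Mrps14 and Mrps26. Mrpl58 releases stalled peptides as a peptidyl-tRNA hydrolase, and its 2 coding rows differed little, at 0.13 and -0.32 relative to all rows. In Mrps14, a protein of the head of the small subunit, the row marked for nonsense-mediated decay had 30.67 and 2.75 FPKM in Ctrl-i Exp.1 and Exp.2 and 15.27 and 39.98 FPKM in Fmr-i1. Its log2 ratios were -0.96 in Exp.1 and 3.45 in Exp.2, so the experiments went opposite ways. The coding row of Mrps14 had 20.36 and 15.72 FPKM in Ctrl-i and 17.51 and 12.96 FPKM in Fmr-i1.

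The other genes that build and serve the mitochondrial ribosome were compared in the same way with the rows of each gene summed, and 0 of them passed the adjusted threshold in limma. At an unadjusted p under 0.05 there was 1, Timm23, against 5.29% of all genes in that fit. Of 5 subunits without an Mrp name, 2 lay above and 3 below the median of all rows, and Dap3, a small subunit protein that binds GTP, had 24.90 and 21.26 FPKM in Ctrl-i Exp.1 and Exp.2 and 19.06 and 12.92 FPKM in Fmr-i1. Of 14 assembly factors 6 lay above and 8 below, with Mterf4, which brings a ribosomal RNA methyltransferase to the large subunit, at 7.59 and 10.16 FPKM in Ctrl-i and 18.07 and 13.75 FPKM in Fmr-i1. Of 12 genes of the translation factor list, which also holds Lrpprc, Slirp and Oxa1l, 6 lay on each side. The elongation factor Gfm1 had 3.53 and 2.44 FPKM in Ctrl-i and 5.65 and 6.85 FPKM in Fmr-i1. In Dap3 both Fmr-i1 values were lower than both Ctrl-i values, and in Mterf4 and Gfm1 both were higher. Of 11 tested genes of the mitochondrial aminoacyl-tRNA synthetase list, which also holds the amidotransferase subunits Gatb and Gatc, 5 lay above and 6 below. Of 12 genes of mitochondrial transcription and RNA processing 3 lay above and 9 below, with Tfam, which packages and transcribes mitochondrial DNA, at 4.41 and 7.07 FPKM in Ctrl-i and 8.84 and 9.08 FPKM in Fmr-i1. Of 20 import and outer membrane genes 11 lay above and 9 below, with Timm23, the channel of the inner membrane, at 13.22 and 8.34 FPKM in Ctrl-i and 34.80 and 16.47 FPKM in Fmr-i1. Timm50, a receptor of the same translocase, had 2.29 and 12.34 FPKM in Ctrl-i and 1.94 and 0.69 FPKM in Fmr-i1. Tfam and Timm23 were both higher in Fmr-i1 without overlap, and Timm50 was lower without overlap. The assembly factor Mrm2 had 4.64 and 5.47 FPKM in Ctrl-i and 1.45 and 3.26 FPKM in Fmr-i1, lower without overlap. Tfb2m, of the transcription and RNA processing list, had 11.38 and 8.05 FPKM in Ctrl-i and 18.8 and 11.81 FPKM in Fmr-i1, higher without overlap. Genes named from these lists were picked by smallest p, which favours groups without overlap. Over all transcript rows, 25.7% lay above and 11.2% below without overlap. The table held 14 of 26 listed assembly factors, 12 of 16 translation factor genes and 13 of 22 synthetase genes. It also held 12 of 19 transcription and RNA processing genes and 20 of 21 import and outer membrane genes. Of 9 listed regulators of mitochondrial biogenesis 4 were in the table, and 2 of these lay on each side. Nrf1 and Gabpb1 were among those not in the table. Esrra had 6.47 and 3.08 FPKM in Ctrl-i and 7.47 and 8.81 FPKM in Fmr-i1, higher without overlap. Yy1 had 9.39 and 10.54 FPKM in Ctrl-i and 12.54 and 13.51 FPKM in Fmr-i1, also higher without overlap. Ppargc1a had 6.03 and 6.29 FPKM in Ctrl-i and 5.18 and 5.12 FPKM in Fmr-i1, lower without overlap. Gabpa, named for its motif after its values were seen, had 15.41 and 16.03 FPKM in Ctrl-i and 17.95 and 15.98 FPKM in Fmr-i1.

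Some short motifs were more frequent in promoters of member genes than in those of all genes in the table. The selection by name did not use these motifs. RefSeq start sites on GRCm38.p6 gave 72 windows for 66 of the 76 genes, each from 250 bases before to 50 bases after the start. The factors NRF1, GABPA (an ETS protein) and YY1 are known to act at many nuclear genes of mitochondrial proteins, and exact matches to a short form of each motif were searched on both strands: GCGCATGCG for NRF1, CCGGAAG for the ETS type and AAGATGGCG for YY1. The ETS letters were in 33.3% of member windows, 18.1% of windows of all genes in the table and 8.86% of all windows. The NRF1 letters were in 8.33%, 3.80% and 1.75%, and the YY1 letters in 9.72%, 3.25% and 1.40%. By subunit name, the NRF1 letters were in 6 of 48 large (12.5%) and 0 of 24 small subunit windows (0%), counts too small to tell the subunits apart. The ETS letters were in 31.25% and 37.5% of these windows, and the YY1 letters in 8.33% and 12.5%. The TATAAA box was in 6.94%, 6.82% and 13.6%. At least 1 of the first 3 motifs was in 45.8% of member windows, 23.6% of those of genes in the table and 11.4% of all windows, and the median GC content was 58.5%, 61.3% and 52.7%. A match is a description of the letters and not a measured site of binding.

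The stretches below come from member genes with a match wholly before the RefSeq start site. They hold the match of the most abundant gene for NRF1, the 2 most abundant for the ETS type and the only one for YY1. Matches are in capitals on the gene's strand.
Mrpl17, NRF1, chr7:105811088-105811117: agccacgcgccgagttactGCGCATGCGtc
Mrpl52, ETS, chr14:54426835-54426894: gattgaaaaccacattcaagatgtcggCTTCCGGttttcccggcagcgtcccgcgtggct
Mrpl34, ETS, chr8:71464862-71464921: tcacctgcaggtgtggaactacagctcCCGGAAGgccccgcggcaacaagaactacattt
Mrpl36, YY1, chr13:73330967-73330996: acgtgaccttaCGCCATCTTtcttcctggc
Mrpl17 lies on the minus strand and the others on the plus strand, and in Mrpl52 and Mrpl36 the letters read on the opposite strand. For some annotated transcripts the stretches are not upstream. The Mrpl17 stretch reaches into Mrpl17-202, whose 5' end is at 105811099. The Mrpl36 stretch lies downstream of 73330860, where exon 2 of Mrpl36-202 begins. The values of the other 3 genes stand with their rows above, and Mrpl34, a bacteria-related protein, had 62.46 and 32.49 FPKM in Ctrl-i Exp.1 and Exp.2 and 63.79 and 54.22 FPKM in Fmr-i1, with overlap of the groups.

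**Figure D5:**
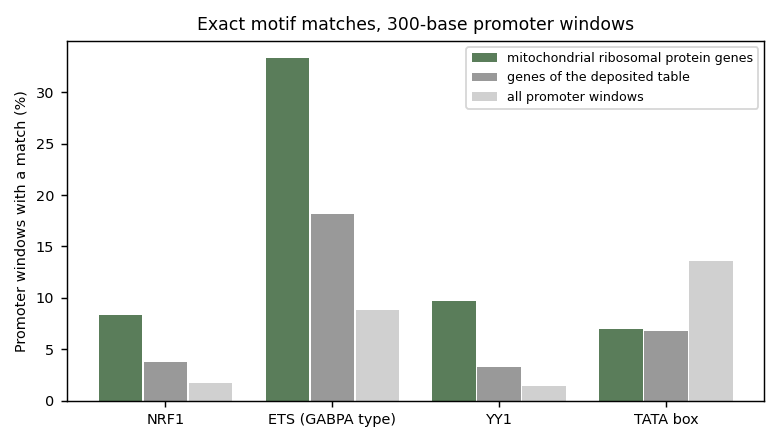
Bars give the percent of promoter windows of 300 bases that hold an exact match on either strand, for member genes (green), genes of the table (grey) and all windows (light grey). The ETS letters are in 33.3% of member windows against 18.1% and 8.86%, and the TATA box in 6.94% against 6.82% and 13.6%.

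Member genes also often start back to back with another gene. In 17 of 75 member genes with an annotated coding gene model (22.7%), a protein-coding gene on the other strand starts within 1000 bases, against 11.1% of genes in the table and 6.79% of all protein-coding genes. Mrpl49 starts 59 bases from Fau, which encodes a cytosolic ribosomal protein. Mrpl49 had 24.61 and 20.04 FPKM in Ctrl-i Exp.1 and Exp.2 and 26.74 and 33.86 FPKM in Fmr-i1, and Fau had 406 and 247 FPKM in Ctrl-i and 337 and 379 FPKM in Fmr-i1. Mrpl32 starts 75 bases from Psma2, a proteasome gene. Mrpl32 had 40.43 and 18.77 FPKM in Ctrl-i and 30.76 and 27.22 FPKM in Fmr-i1, and Psma2 had 69.7 and 44.7 FPKM in Ctrl-i and 74.8 and 60.1 FPKM in Fmr-i1. These 2 pairs were chosen after their values were seen. Of the 11 partner genes in the table, Ctrl-i Exp.2 was the lowest library in 4, Fau and Psma2 among them, and the highest in 2.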

How the data were processed

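RNA from purified multicilia was sequenced in 4 libraries, grouped by their labels as Ctrl-i and Fmr-i1 in Exp.1 and Exp.2. The authors deposited FPKM for 12515 transcript rows. The paper names Cutadapt, a mapper to GRCm38/mm10 and Cuffdiff, while HISAT2 2.1.0 and featureCounts 1.5.3 stand in the submitters' processing notes. The sources used here do not settle which tools produced the FPKM or whether counting used the strand. The length column was left out, because in 92 of 102 member rows it equals the genomic span.

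Members, lists and tests were chosen with earlier results of these data known. Named genes are the 6 highest and 3 lowest of each subunit, the 5 largest positive and negative differences among rows that averaged 5 FPKM or more with 1 direction in both experiments, genes with rows of opposite sign, Mrps18a, Mrps30, Mrps36, Fmr1, and up to 3 members of each other list by smallest p. Mrps11, Mrps18b and Mrps23 were not analysed here. Ict1, in the list of other subunits, is an older symbol of Mrpl58.

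Rows with a mean of 1 FPKM or more were fitted with limma 3.58.1 (R 4.3.3) on log2(FPKM + 1), that is with a pseudocount of 1 FPKM, a trend of variance on level and a block for the experiment, and p-values were adjusted by Benjamini-Hochberg with a threshold of 0.05. The fit, which leaves 1 residual degree of freedom, was tested on simulated data. Other genes of the pathway were fitted with rows summed per gene. As alternatives, the pseudocount was set to 0.1 or 5 FPKM, the filter was dropped or raised to 5 FPKM, and the rest were median, quantile and mt-free scaling, summed rows, no block, no trend of variance, each library left out, and Mrps6 left out, the last chosen after seeing the data. Transcript types and exons come from GENCODE M21 and promoters from RefSeq GRCm38.p6. Symbols turned into dates by a spreadsheet (25) were restored from GENCODE. Results that need 2 of the named transcript rows are not reported here.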

Additional observations from a re-analysis of the deposited data

How the results depend on the processing

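No member row passed the adjusted threshold under any of the 14 alternatives, and over all rows 3 passed without the block and 0 otherwise. Deviations from the group means had a correlation of -0.0822 between libraries of 1 experiment. That value cannot settle what these libraries share. Dropping the replicate block cannot change a fold change in this balanced design, so the median of member rows relative to all rows was -0.06 either way. In the limma fit without the block, 3 member rows had an unadjusted p under 0.05, against 6.05% of all rows. That median ran from -0.15 to 0.030 when each library was left out, and the large less small difference from -0.14 to -0.021. The log2 ratio of the summed FPKM, 0.05 on the deposited scale, was -0.14 under median scaling, 0.09 without Mrps6 and -0.09 to 0.21 with a library left out. Mrpl3-204 changed sign, to -0.24, when the rows of each gene were summed, because its other 3 rows enter that sum. Among the 10 named rows, the other 9 kept their direction in all 14 alternatives. These rows were chosen for 1 direction in both experiments, and dropping the block or the variance trend leaves a fold change as it is. Their kept direction is therefore no separate evidence of stability. With 2 libraries per group and 1 residual degree of freedom, small changes were not detectable, and the unknown depth gives no error for single values.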
